A study of Mus musculus with 1012 samples.

Results

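The CXC chemokine genes Cxcl1, Cxcl2, Cxcl3, Cxcl5, Cxcl10, Cxcl12, Cxcl14 and Cxcl16 were followed across every cell state, sampling technique and batch of the study. These 8 genes were chosen by name from the 30452 features of the count table, and all 8 have a row there. Live-seq draws a cytoplasmic biopsy from a living cell through a microchannel probe and sequences its RNA, while the cell stays alive. The comparison technique, scRNA-seq, sequences whole lysed cells by Smart-seq2 chemistry with fewer PCR cycles than the biopsies had, so that technique and amplification cannot be told apart.

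The macrophage states were RAW264.7 cells, a mouse monocyte or macrophage-like line, left with vehicle (RAW_Mock) or given lipopolysaccharide (LPS, RAW_LPS). Biopsies were taken 4 to 5 h after LPS was added, and whether this time also holds for the whole cells is not known here. In every batch but 5Reseq they were the RAW-G9 clone, a single subline that carries an mCherry reporter under the Tnf promoter and a relA-GFP fusion. Batch 5Reseq held wild-type RAW264.7 cells, so that line and batch cannot be told apart. The stromal states were IBA cells and primary adipose stem and progenitor cells (ASPCs). IBA is an immortalised line made from stromal cells of the interscapular brown fat of young male C57BL6/J mice. The ASPCs came from subcutaneous fat of female C57BL/6J mice aged 7 to 10 weeks. They were taken before (ASPC_Pre) or 2 days after (ASPC_Post) induction with dexamethasone, 3-isobutyl-1-methylxanthine, insulin and rosiglitazone. IBA cells were also sequenced whole 1 h (IBA_1h) or 4 h (IBA_4h) after a Live-seq extraction, beside non-probed cells (IBA_0h).

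The 1012 libraries comprised 296 Live-seq biopsies, 162 whole IBA cells of the post-extraction experiment and, for the rest, scRNA-seq cells. Total counts ran from 64547 to 1603790 per Live-seq library and from 41030 to 2671609 per scRNA-seq library, with a median of 4035 and 8531 genes detected. Counts of the cells of each state in each batch were added up, and these sums (15 for Live-seq, 12 for scRNA-seq) were the replicates. Tests within a technique had batch as a block, so their p-values rest on the spread left after state and batch. That spread was estimated over all states of a technique together. Levels are in CPM, the usual per-library scaling of counts to a common total, here the counts kept after removal of ribosomal protein and negative-control genes. Marker genes matched the labels. The summed level of 10 mesenchymal markers was at most 5.63 CPM in any RAW sum, and that of 10 macrophage markers was at most 86.0 CPM in any ASPC sum. In scRNA-seq IBA the macrophage markers summed to 25.85 CPM in batch 8_8, 606.66 CPM in batch 9_1, led by Lyz2 at 446.49 CPM, and 8.07 CPM in batch scRNA, against at least 7852 CPM in any scRNA-seq RAW sum. Of 6 adipocyte markers, Plin1 and Adipoq were at 0 in ASPC_Pre and the other 4 had counts, and the list summed to at most 569.2 CPM there and at most 1383 CPM in scRNA-seq RAW_LPS, so that it does not set the cell types apart. Mesothelial markers were present in ASPC_Pre at a summed 36.54 to 213.98 CPM.

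CXC chemokines are small secreted or membrane-bound proteins with a single residue between their first pair of cysteines, and they steer leukocytes through G-protein-coupled receptors. Those that carry the residues glutamate, leucine and arginine (ELR) just before that pair bind CXCR2 and draw neutrophils, and Cxcl1, Cxcl2, Cxcl3 and Cxcl5 belong to this branch. Cxcl10 is an interferon-induced ligand of CXCR3 on T cells. Cxcl12 keeps stem cells and lymphocytes in their niches through CXCR4 and is taken up by the scavenging receptor ACKR3. Cxcl14 is a tissue chemokine whose receptor is less settled, and Cxcl16 is a transmembrane ligand of CXCR6 that ADAM proteases shed. In macrophages, LPS acts through TLR4 to activate NF-kB and, through a second adaptor, a type I interferon response. Fat stromal cells are known as a source of Cxcl12 and of ELR chemokines.

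The ELR branch can be read from the coding sequence. Below are 51 bases of each coding sequence around the codons of the first cysteine pair, from the transcripts of the GRCm38 annotation, in the sense strand. Capitals mark the 3 codons before the first cysteine codon.
Cxcl1: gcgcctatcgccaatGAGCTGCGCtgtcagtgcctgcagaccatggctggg
Cxcl2: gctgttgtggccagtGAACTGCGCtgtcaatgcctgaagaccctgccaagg
Cxcl3: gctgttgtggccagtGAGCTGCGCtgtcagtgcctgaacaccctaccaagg
Cxcl5: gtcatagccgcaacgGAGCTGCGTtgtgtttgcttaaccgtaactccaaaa
Cxcl10: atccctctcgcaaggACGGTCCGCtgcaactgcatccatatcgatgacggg
Cxcl12: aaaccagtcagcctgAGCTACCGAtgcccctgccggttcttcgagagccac
Cxcl14: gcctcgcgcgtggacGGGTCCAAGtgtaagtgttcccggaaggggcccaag
Cxcl16: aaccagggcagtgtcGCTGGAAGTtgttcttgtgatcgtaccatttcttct
Cxcl1, Cxcl2, Cxcl3 and Cxcl5 carry glutamate, leucine and arginine codons in capitals, and the other 4 genes do not. Over the whole coding sequence Cxcl2 and Cxcl3 were identical at 89.7% of aligned bases, Cxcl1 and Cxcl2 at 76.7%, and Cxcl1 and Cxcl3 at 73.3%. The authors kept uniquely mapped reads alone, so a read that fits more than a single member of this trio equally well went uncounted. The number of such reads was not measured, and their part in the low values of Cxcl3 was not tested.

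The ELR genes and Cxcl10 lie on chromosome 5. On GRCm38, Cxcl5 spans chr5:90759360-90761624, Cxcl3 chr5:90786103-90789600, Cxcl1 chr5:90891241-90893115 and Cxcl2 chr5:90903871-90905938, all on the plus strand. Cxcl10 lies at chr5:92346638-92348889 on the minus strand, where its exons overlap those of Art3 on the opposite strand. Cxcl12 lies at chr6:117168535-117181367 on the plus strand and Cxcl14 at chr13:56288643-56296551 on the minus strand. Cxcl16 lies at chr11:70453983-70459984 on the minus strand and overlaps exons of Zmynd15 on the opposite strand. The counting ignored strand and its union mode leaves a read that touches exons of 2 genes uncounted, so reads of Cxcl10 over Art3 exons, or of Cxcl16 over Zmynd15 exons, are missing from the counts.

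Promoters are shown for the members that hold a searched motif, so that these letters can be read beside the levels. RefSeq promoters (GRCm38.p6, 250 bases before to 50 after the start) were given for 6 of the 8 members and were searched on both strands for GGGNNTTTCC (NF-kB), GAAANNGAAA (an interferon-stimulated response element, ISRE), TGANTCA (AP-1) and TATAAA. The stretches below run 5′ to 3′ on the strand of the gene. Capitals mark matches to the NF-kB, ISRE or AP-1 letters, including a match of the NF-kB letters on the other strand of Cxcl1.
Cxcl3 (chr5:90785981-90786070, plus strand): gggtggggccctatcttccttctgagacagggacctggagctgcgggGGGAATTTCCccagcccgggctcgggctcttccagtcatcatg
Cxcl1 (chr5:90891125-90891214, plus strand): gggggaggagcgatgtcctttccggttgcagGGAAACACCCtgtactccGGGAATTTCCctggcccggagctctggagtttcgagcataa
Cxcl2 (chr5:90903779-90903868, plus strand): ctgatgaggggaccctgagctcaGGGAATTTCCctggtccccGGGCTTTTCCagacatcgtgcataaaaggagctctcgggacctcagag
Cxcl10 (chr5:92348950-92349109, minus strand): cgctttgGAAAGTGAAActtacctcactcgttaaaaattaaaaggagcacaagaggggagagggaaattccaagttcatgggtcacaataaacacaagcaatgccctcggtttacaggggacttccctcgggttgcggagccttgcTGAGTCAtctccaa
Cxcl14 (chr13:56296672-56296731, minus strand): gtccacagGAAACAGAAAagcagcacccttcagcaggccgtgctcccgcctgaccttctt
The NF-kB letters matched in Cxcl1, Cxcl2 and Cxcl3, of which Cxcl1 was highest in IBA, Cxcl2 was highest in RAW_LPS and Cxcl3 was low throughout, and in 1.63% of the 32851 promoters of the table. Cxcl2 held the letters at 97 and 78 bases before its start, Cxcl1 at 89 and 71 bases and Cxcl3 at 73 bases. The ISRE letters matched in Cxcl10 and in Cxcl14, against 3.44% of all promoters. The AP-1 letters matched in Cxcl10 and in 7.81% of promoters, and TATAAA in Cxcl3 and in 13.6%. These are matches of letters, not measured binding.

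The 8 genes were ranked by level within each state, and some leading genes were shared between states. Levels were divided by the merged length of all annotated exons, 8176 bases for Cxcl12 against 1863 for Cxcl5 and 1827 for Cxcl14. Per kilobase of exon, Cxcl14 led RAW_Mock at 64.9 ± 17.4 CPM per kb in scRNA-seq (SD, n = 3) and 90.6 ± 85.4 in Live-seq (n = 4), although Cxcl2 at 59.4 ± 93.2 in Live-seq did not differ from it beyond their spread. Cxcl2 led RAW_LPS at 208.5 ± 86.82 CPM per kb in scRNA-seq (n = 3) and 1244 ± 909.5 in Live-seq (n = 5). Cxcl1 led IBA at 51.97 ± 24.64 and 71.9 ± 50.04 CPM per kb (n = 3 each), followed by Cxcl5 at 39.2 ± 15.2 and 23.8 ± 9.87, within the spread of Cxcl1. In ASPC_Pre, Cxcl5 at 33.5 ± 14.4, Cxcl14 at 27.7 ± 24.8 and Cxcl12 at 22.1 ± 14.7 CPM per kb overlapped in scRNA-seq (n = 2). The Live-seq sums of ASPC_Pre put the same 3 genes first, with Cxcl14 at 35.5 ± 34.6, Cxcl12 at 32.0 ± 17.2 and Cxcl5 at 26.1 ± 13.3 (n = 2), again within their spread. The order rests in part on single cells. Without the top cell, batches 8_8 and 9_4 held 0 and 19.26 CPM of Cxcl14, not divided by length. Cxcl12 was then at 64.53 and 328.7 CPM and Cxcl5 at 0 and 25.08 CPM. In the single ASPC_Post sums Cxcl14 and Cxcl12 came first, at 20.88 and 11.02 CPM per kb in scRNA-seq and 20.13 and 15.11 in Live-seq. Not divided by length, Cxcl12 was highest in ASPC_Pre, at a mean of 181.1 CPM in scRNA-seq against 62.47 for Cxcl5 and 50.53 for Cxcl14. The Live-seq means were 261.2, 48.6 and 64.92 CPM. In ASPC_Post Cxcl12 was at 90.1 CPM in scRNA-seq and 123.6 in Live-seq, against 38.15 and 36.8 for Cxcl14. Among scRNA-seq cells, 99.3% of RAW_LPS, 91.7% of RAW_Mock, 88.9% of IBA, 95% of ASPC_Pre and 85.7% of ASPC_Post cells had a count of at least 1 of the 8 genes.

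**Figure D1:**
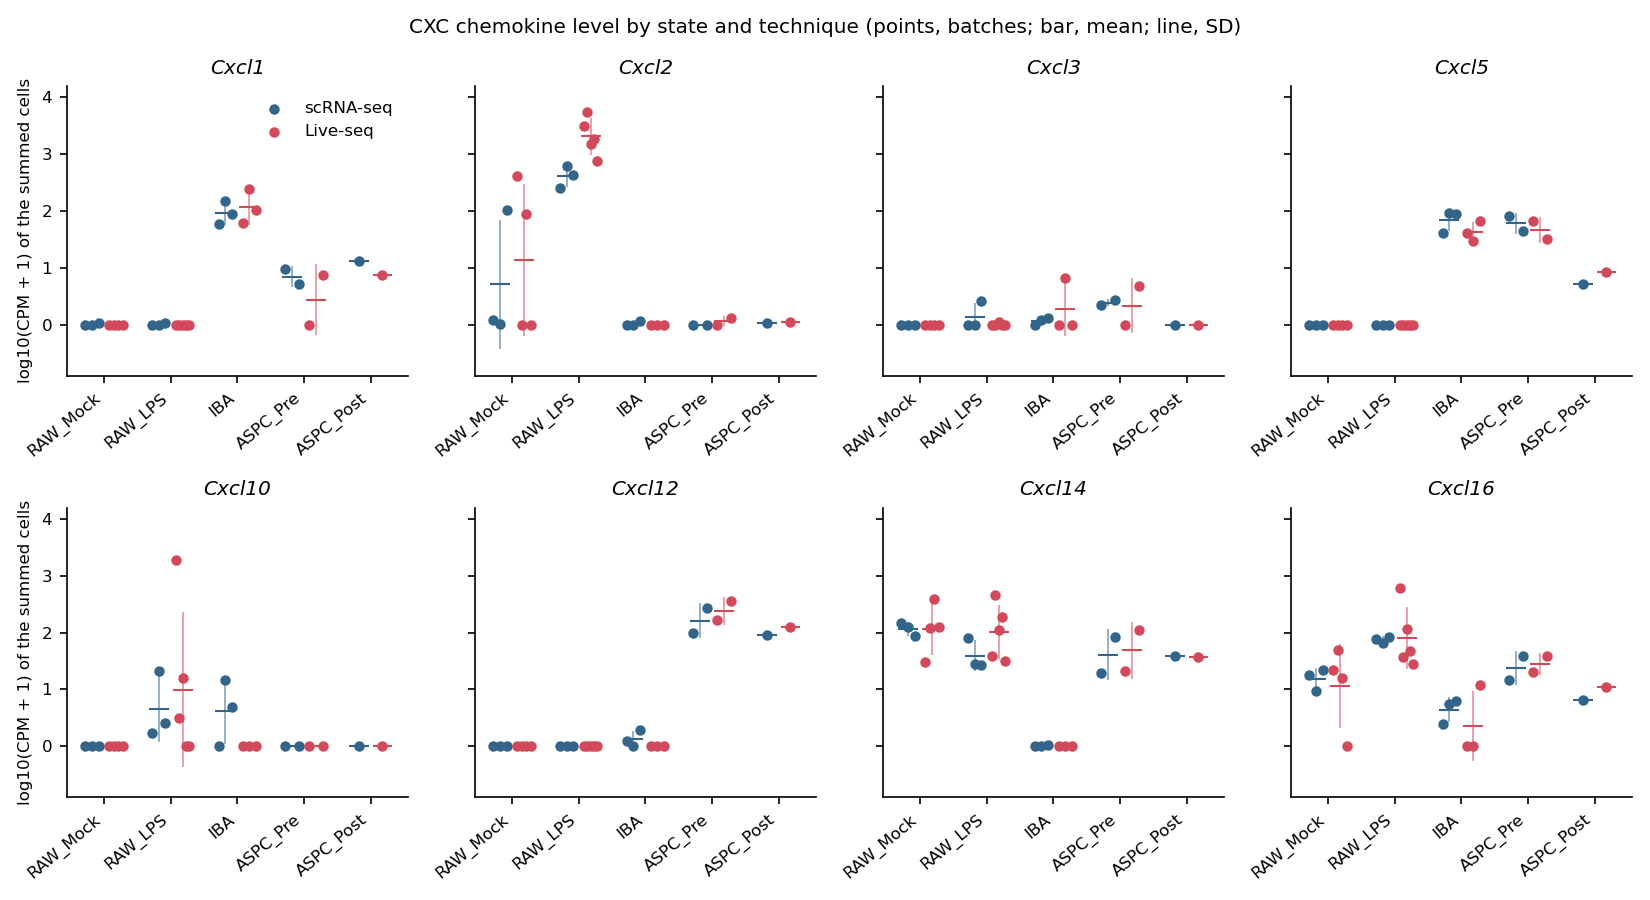
Level of each of the 8 genes, as log10(CPM + 1) of each batch sum, by cell state and technique, where points are sums, bars the mean and lines the SD. Cxcl2 is highest in RAW_LPS, Cxcl1 in IBA and Cxcl12 in ASPC_Pre and ASPC_Post, Cxcl14 is present in RAW cells and ASPCs and near 0 in IBA, and Cxcl3 stays at or below 5.55 CPM.

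The response to LPS was compared between RAW_LPS and RAW_Mock within each technique. Higher levels after LPS were measured for Cxcl2 and Cxcl16 in every batch with both states, Cxcl10 had counts after LPS and none without it, and Cxcl14 was lower after LPS in the 3 scRNA-seq batches. None of these differences passed adjustment over all genes by the main test in either technique.

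Cxcl2, a neutrophil attractant that activated macrophages release early, reached 253.1, 612.1 and 428.3 CPM in the scRNA-seq RAW_LPS sums of batches 8_8, 9_1 and scRNA. It was 0.231, 0.0391 and 105.1 CPM in the RAW_Mock sums of the same batches. The RAW_Mock sum of batch scRNA stood far above the other RAW_Mock sums through 5 of its 95 cells. The fitted log2 fold change was 7.81 (SE 2.11, adjusted p = 0.142, edgeR quasi-likelihood test, Benjamini-Hochberg). SE, here and below, is the fitted log2 fold change divided by the square root of the F of that test. It was not estimated separately and is rough where a group has few counts. Without batch scRNA the log2 fold change was 12.79 (adjusted p = 0.0275), without batch 9_1 4.43 (0.253) and without batch 8_8 6.25 (0.387). With DESeq2 the adjusted p was 0.00115 and with limma, each cell given equal weight, 0.0077, while without the batch term the log2 fold change was 3.69 (adjusted p = 0.483). In batch 9_1, 17818 counts after LPS stood against 1 count without it, a ratio of 15642 with a 95% counting interval of 2807 to 617868, and in batch scRNA the ratio was 4.08. Counting intervals of ratios, here and below, treat each read as an independent draw, although reads are PCR copies, so they overstate the precision.

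In Live-seq, Cxcl2 was at 3179, 5549, 1497, 1876 and 760.3 CPM in the RAW_LPS sums of batches 5Reseq, 6, 7, 8_8 and 9_4. The RAW_Mock sums held 405.4, 0, 85.8 and 0 CPM in batches 6, 7, 8_8 and 9_4. In batch 6 a single cell gave 86.2% of the RAW_LPS counts and another gave 99.2% of the RAW_Mock counts. Without these cells, a choice made after seeing the data, the sums of batch 6 were at 1215 and 3.52 CPM. The log2 fold change was 6.46 (SE 2.2, unadjusted p = 0.0159, adjusted p = 1, edgeR quasi-likelihood test), and it was 4.88 without batch 7 and 11.45 without batch 8_8. With DESeq2 the adjusted p was 0.0393, and under the other alternatives it was 0.317 or more. Within batches the fold was 13.7 in batch 6, 21.9 in batch 8_8, and at least 4001-fold and 1133-fold in batches 7 and 9_4, where no RAW_Mock count was found and a floor of 3 counts per sum was set. Batch 5Reseq holds a single RAW_Mock cell and no RAW_Mock sum, and with the batch term it adds nothing to this difference.

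The change in Cxcl2 was spread over most cells. In scRNA-seq the RAW_LPS cells numbered 15, 46 and 88 in batches 8_8, 9_1 and scRNA and the RAW_Mock cells 16, 46 and 95. In Live-seq there were 50 RAW_LPS biopsies, and the RAW_Mock biopsies numbered 1, 8, 20, 63 and 12 in batches 5Reseq, 6, 7, 8_8 and 9_4. A count was found in 89.3% of scRNA-seq RAW_LPS cells (exact 95% interval 83.1 to 93.7%), and in 7 RAW_Mock cells, or 4.46% (1.81 to 8.97%). The Live-seq shares were 44 of 50 cells, or 88.0% (75.7 to 95.5%), and 9 RAW_Mock biopsies, or 8.65% (4.03 to 15.8%). The shares of both techniques lay close together, and thinning every cell to 50000 counts gave 83.2% and 3.21% in scRNA-seq and 85.7% and 7.84% in Live-seq. These intervals cover counting error only.

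Cxcl16, the membrane-bound ligand of CXCR6 and a scavenger of oxidised lipid, was at 76.3, 63.1 and 82.8 CPM in the scRNA-seq RAW_LPS sums and at 16.6, 8.49 and 20.9 CPM in the RAW_Mock sums. Each batch showed the same order, with folds of 4.59, 7.44 and 3.96. The log2 fold change was 2.44 (SE 0.54, adjusted p = 0.0719, edgeR quasi-likelihood test). It passed with DESeq2 (adjusted p = 0.000545), with limma (0.0206), with the newer edgeR fit (0.0223) and without the filter on low counts (0.0426), and it did not pass with any 1 batch left out (0.0898 to 0.347), without the batch term (0.139) or with the removed genes kept (0.0564). The share of cells with a count was 94.6% after LPS and 39.5% without it, or 89.9% and 25.6% after thinning.

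Live-seq RAW_LPS sums held 601.4, 35.45, 113.6, 46.14 and 26.71 CPM of Cxcl16, and the RAW_Mock sums 21.1, 48.6, 14.8 and 0 CPM. These groups overlapped, and the log2 fold change of 1.39 (SE 1.76, adjusted p = 1, edgeR quasi-likelihood test) was smaller than its SE. Within batches 6, 7 and 8_8 the folds were 1.68, 2.34 and 3.11, and in batch 9_4 at least 39.8. In batch 6 a single cell gave all counts of each state, and both levels were 0 without these cells. In batch 8_8 the RAW_LPS level was 4.85 CPM without its top cell, which puts it below the RAW_Mock level of that batch. Without the top cells, batch 7 held 91.03 CPM in RAW_LPS and 21.94 CPM in RAW_Mock, and batch 9_4 held 13.5 CPM in RAW_LPS. A count was found in 50% of the RAW_LPS and 9.62% of the RAW_Mock biopsies.

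Cxcl10, the interferon-induced CXCR3 ligand, had no count in any RAW_Mock cell of either technique. A count of 0 in the RAW_Mock whole cells and biopsies allows shares of cells with a count of up to 1.91% and 2.88%, taking 3 cells of the total as the limit, and does not limit the share of cells that express the gene. After LPS it was at 0.726, 19.96 and 1.56 CPM in the scRNA-seq sums, a level at least 214.9-fold higher over the groups (adjusted p = 0.0758, edgeR quasi-likelihood test). Batch 9_1 gave most of these counts, with 11.9 CPM left without its top cell, and within batches the bound was 170-fold in 9_1 and 17.8-fold in scRNA, while 8_8 had 3 counts. Without batch 9_1 the adjusted p was 0.279 (edgeR). The adjusted p was 0.0186 with DESeq2, 0.0126 with the newer edgeR fit and 0.0265 without the filter. Of the whole RAW_LPS cells, 24 had a count (16.1%), which were 1 of 15, 18 of 46 and 5 of 88 cells in batches 8_8, 9_1 and scRNA.

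In the Live-seq RAW_LPS sums Cxcl10 was at 1874.5 CPM in batch 5Reseq and at 2.13, 14.6, 0 and 0 CPM in batches 6, 7, 8_8 and 9_4. The high sum is the wild-type line, where 8 of 11 cells had a count and the level without the top cell was 1426 CPM. Over the groups the level was at least 4642-fold higher after LPS, nearly all of it from batch 5Reseq, which sets wild-type cells after LPS against RAW-G9 cells without it. The fit with the batch term, to which batch 5Reseq adds nothing, gave an unadjusted p of 0.00861 and an adjusted p of 1 (edgeR quasi-likelihood test). Within batch 7, a RAW-G9 batch, it was at least 39-fold higher, from 2 of 16 cells, and 6.85 of the 14.6 CPM remained without the top cell. All 11 Live-seq and all 24 scRNA-seq RAW_LPS cells with a Cxcl10 count also had a Cxcl2 count, against 88% and 89.3% of all RAW_LPS cells.

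Other interferon genes stood apart in the same wild-type sum. Of 12 interferon-stimulated genes, 10 were higher in the RAW_LPS sum of batch 5Reseq than in each of the 4 RAW-G9 Live-seq RAW_LPS sums, as were 29% of all genes with a count in these sums. The genes named next were chosen after their values were seen. Rsad2, an antiviral radical enzyme, was at 2170 CPM there and at most 54.2 CPM in the others, and Ifit1, which binds foreign RNA, at 1163 CPM against at most 122.1. Irf7 and Ddx58 were barely above the others, at 456.8 CPM against up to 448.5 and 253.2 CPM against up to 237.1. The exceptions were Ifih1 at 270.9 CPM against up to 403.8 and Usp18 at 184.3 CPM against up to 258.05. Cxcl11, another CXCR3 ligand, was at 94.6 CPM in 4 cells and the receptor gene Cxcr3 at 23.3 CPM in 4 cells of batch 5Reseq, and both were at 0 in the other Live-seq RAW_LPS sums.

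Cxcl14 went the other way in whole cells. It was at 148.1, 122.4 and 85.04 CPM in the scRNA-seq RAW_Mock sums and at 80.15, 26.9 and 25.69 CPM after LPS. Within batches the level after LPS was 0.541, 0.22 and 0.302 times that without it. The log2 fold change was -1.33 (SE 0.61, adjusted p = 0.369, edgeR quasi-likelihood test), so that the difference did not pass the test. A count was found in 86.6% of RAW_Mock and 75.8% of RAW_LPS cells, or 75.6% and 47.7% after thinning.

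In Live-seq the Cxcl14 levels were 29.41, 119.6, 390.6 and 122.8 CPM in RAW_Mock and 37.17, 447.4, 111.5, 184.5 and 30.02 CPM in RAW_LPS. The groups overlapped, and the log2 fold change was 0.08 (SE 1.25, adjusted p = 1, edgeR quasi-likelihood test). Within batches 7, 8_8 and 9_4 the level after LPS was 0.932, 0.473 and 0.244 times that without it. In batch 6, with 4 RAW_LPS cells, it was 15.2 times higher, and leaving that batch out turned the log2 fold change to -0.77. All RAW_Mock counts of batch 6 came from 1 of 8 cells, and 183.25 CPM of its RAW_LPS level remained without the top cell. In batch 9_4 all RAW_LPS counts came from 1 of 10 cells. The share of biopsies with a count was 71.2% in RAW_Mock and 48% in RAW_LPS.

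**Figure D2:**
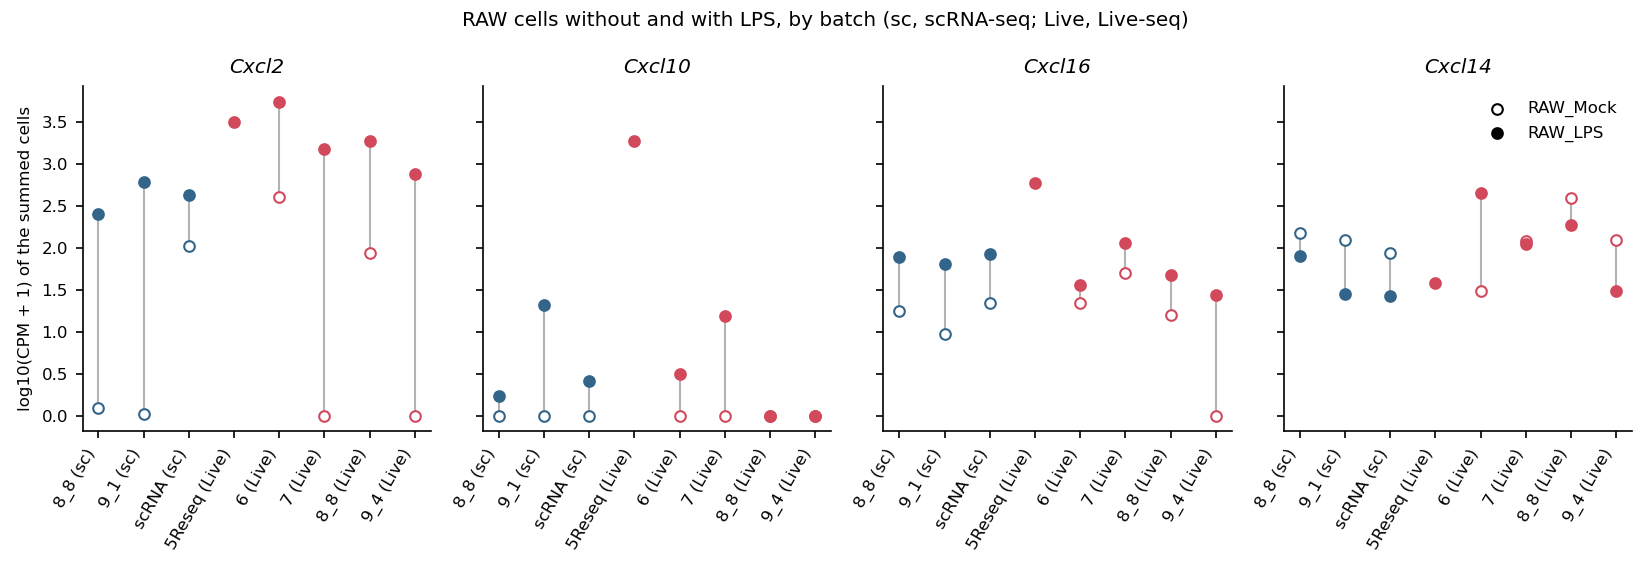
Levels of Cxcl2, Cxcl10, Cxcl16 and Cxcl14 in RAW_Mock (open) and RAW_LPS (filled) sums of each batch, in CPM on a log10(CPM + 1) scale, with scRNA-seq and Live-seq batches side by side. Cxcl2 is higher after LPS in all 7 batches that hold both states, Cxcl10 stands at 1874.5 CPM in batch 5Reseq, and Cxcl14 is lower after LPS in the 3 scRNA-seq batches and in 3 of 4 Live-seq batches.

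Of the 8 genes, 7 were tested, since Cxcl3 missed the filter on low counts. A gene passed that filter through the state where it was high. Of these 7, 0 were called for LPS in scRNA-seq against 1.23% of all genes tested, with 3 at an unadjusted p under 0.05, and DESeq2 called 3, limma 2, the newer edgeR fit 2 and the test without a filter 2. In Live-seq, 0 of 7 were called against 0% of all genes, with 2 at an unadjusted p under 0.05, where DESeq2 called 1 and limma, the newer edgeR fit and the test without a filter 0. Cxcl1 had 2 counts in each RAW state of scRNA-seq and Cxcl5 and Cxcl12 had none, so LPS brought no measurable level of these stromal genes at this depth. Cxcl3 had 47 counts in 2 cells of a single RAW_LPS sum, at 1.59 CPM. Unfiltered, its adjusted p was 0.441 by the edgeR quasi-likelihood test.

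Genes that act with the chemokines were counted in the same LPS test. Of 10 NF-kB targets and subunits, 7 rose in scRNA-seq, with a median log2 fold change of 2.58 against -0.01 over all genes tested, of which 1.23% were called. Without batch 8_8 no gene at all was called for LPS in scRNA-seq, and without batch 9_1 or scRNA 0.135% and 0.0295% of genes were. The called genes included Icam1, an adhesion molecule for leukocytes, at 3.08 (SE 0.52, adjusted p = 0.0318, edgeR quasi-likelihood test), and the inhibitor gene Nfkbie at 2.81, while the subunit genes Relb and Nfkb1 had the smallest called changes, at 2.14 and 1.71. Of 10 interferon-stimulated genes tested, Cmpk2 at 5.72 and Ifih1 at 3.52 rose, and the median of the list was 2.29. Of 6 regulators of chemokine mRNA stability, Zc3h12a, an RNase that degrades inflammatory transcripts, rose by 3.19, with a list median of 0.24. No gene of these lists was called in Live-seq, where the medians of the NF-kB and interferon lists were 2.83 and 4.09 against -0.48 over all genes.

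Stromal cells were then compared with RAW_Mock cells. Cxcl1 was high in IBA and present in ASPC_Pre, Cxcl5 was high in IBA and ASPC_Pre alike, and Cxcl12 was high in ASPC_Pre. All 3 were at or near 0 in RAW cells. Since these comparisons share the RAW_Mock sums, their values are set side by side and not counted as independent. Folds given as at least rest on the floor of 3 counts, and the adjusted p beside them tests the fitted log2 fold change. Of the 7 genes tested in scRNA-seq, 3 were called in ASPC_Pre, all higher, against 40% of all genes, and 7 in IBA, 4 higher and 3 lower, against 33.7% of all genes, where limma called 4. In Live-seq, 0 were called in ASPC_Pre against 2.01% of all genes (2 at an unadjusted p under 0.05, and 1 called by DESeq2, 2 by limma, 1 by the newer edgeR fit and 1 without the filter). In Live-seq IBA, 1 was called, lower, against 2.27% of all genes (4 at an unadjusted p under 0.05, and 4 called by DESeq2, 3 by limma, 3 by the newer edgeR fit and 1 without the filter).

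Cxcl1, a neutrophil attractant, was at 57.53, 148.1 and 86.74 CPM in the scRNA-seq IBA sums and at 8.51 and 4.15 CPM in ASPC_Pre. The RAW_Mock group held 2 counts in all. IBA exceeded RAW_Mock by a ratio of 3623 (95% counting interval 1002.7 to 29925) and a fitted log2 fold change of 11.58 (SE 0.97, adjusted p = 4.13e-05, edgeR quasi-likelihood test). ASPC_Pre exceeded it by a ratio of 153.5 (41.69 to 1280) and a log2 fold change of 8.03 (SE 1.03, adjusted p = 0.000401, edgeR). IBA was also above ASPC_Pre, with a log2 fold change of -3.55 for ASPC_Pre against IBA (SE 0.76, adjusted p = 0.022, edgeR). That call was lost without batch 9_1 (adjusted p = 0.194, edgeR) and without batch scRNA (0.0762). A single cell gave 91.4% of the ASPC_Pre counts of Cxcl1 in batch 8_8, and another gave 63.4% in batch 9_1. Without the top cell of each sum the ASPC_Pre levels were 0.799 and 1.55 CPM.

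Live-seq gave the same order with wider spread. Cxcl1 was at 59.47, 239.9 and 105.1 CPM in the IBA sums and at 0 and 6.54 CPM in ASPC_Pre, and at 0 in every RAW sum. Without the top cell of each sum the IBA levels were 15.7, 131.0 and 50.41 CPM. In the ASPC_Pre sum of batch 9_4, 59.6% of the counts came from 1 cell, and 2.67 CPM remained without it. IBA was at least 1194-fold above RAW_Mock (adjusted p = 0.143, edgeR quasi-likelihood test) and ASPC_Pre at least 55.9-fold (adjusted p = 0.464, edgeR). The log2 fold change of ASPC_Pre against IBA was -6.06 (SE 3.29, adjusted p = 1, edgeR).

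Cxcl5, the ELR chemokine known from adipose tissue, was at 40.64, 92.6 and 85.96 CPM in the scRNA-seq IBA sums and at 81.5 and 43.5 CPM in ASPC_Pre. It had no count in any RAW sum. IBA was at least 1837-fold above RAW_Mock (adjusted p = 0.000582, edgeR quasi-likelihood test) and ASPC_Pre at least 1048-fold (adjusted p = 0.000614, edgeR). The stromal cell types overlapped, with a log2 fold change of 0.24 for ASPC_Pre against IBA (SE 0.62, adjusted p = 0.842, edgeR). In the ASPC_Pre sum of batch 8_8, 73.7% of the counts came from 1 cell, and the level without it was 23.2 CPM.

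In Live-seq, Cxcl5 was at 39.4, 28.9 and 64.7 CPM in IBA and at 66.1 and 31.1 CPM in ASPC_Pre, where the value of batch 8_8 came from 1 of 18 cells. In IBA of batch 7, 71.5% of the counts came from 1 of 13 cells. Without the top cell of each sum the IBA levels were 11.998, 18.9 and 44.6 CPM. The groups overlapped those of the whole cells, and 3 of the 5 sums lay below every whole-cell sum of their state. IBA was at least 496.9-fold above RAW_Mock (adjusted p = 0.129, edgeR quasi-likelihood test) and ASPC_Pre at least 408.7-fold (adjusted p = 0.137, edgeR), and ASPC_Pre against IBA gave a log2 fold change of 0.38 (SE 2.33, adjusted p = 1, edgeR).

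Cxcl1 and Cxcl5 often shared a cell. In scRNA-seq IBA, 68.6% of cells had a Cxcl1 count and 71.9% a Cxcl5 count, and 86 cells had both. Thus 81.9% of the cells with Cxcl1 had Cxcl5, against 71.9% of all IBA cells. In ASPC_Pre all 13 scRNA-seq cells with Cxcl1 had Cxcl5, against 51.7% of all. A deeper cell shows more genes, and the part of depth in these shares was not tested.

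Cxcl12, the CXCR4 ligand of stromal niches, was at 96.04 and 266.1 CPM in the scRNA-seq ASPC_Pre sums and at 90.1 CPM in the single ASPC_Post sum. It was at 0.208, 0 and 0.9 CPM in IBA and at 0 in every RAW sum. ASPC_Pre was at least 5170-fold above RAW_Mock (adjusted p = 0.000516, edgeR quasi-likelihood test), and its log2 fold change against IBA was 12.4 (SE 1.24, adjusted p = 0.00828, edgeR). The latter call was lost with DESeq2 (adjusted p = 0.119) and without batch 9_1 (0.104). The call of IBA over RAW_Mock (at least 9.37-fold, adjusted p = 0.0354, edgeR) rested on 1 cell, which held all 29 counts of batch scRNA, beside 1 count in batch 8_8. Without that batch the adjusted p was 0.586 by the same test.

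In Live-seq, Cxcl12 was at 161.9 and 360.6 CPM in ASPC_Pre and at 123.6 CPM in ASPC_Post, with none in IBA or RAW sums. In the ASPC_Pre sum of batch 8_8, 4 of 18 cells carried it and 64.5 CPM remained without the top cell, while in batch 9_4 29 of 43 cells carried it. ASPC_Pre was at least 3434-fold above RAW_Mock (adjusted p = 0.11, edgeR quasi-likelihood test) and at least 2338-fold above IBA (adjusted p = 0.816, edgeR). A count was found in 83.3% of ASPC_Pre whole cells (71.5 to 91.7%) and 54.1% of biopsies, or 80.0% and 50.8% after thinning.

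Cxcl14 and Cxcl16 were shared by macrophages and ASPCs and low in IBA. Cxcl14 was at 18.5 and 82.6 CPM in the scRNA-seq ASPC_Pre sums, or 5.86 and 29.03 CPM without the top cell of each, and at 1 count over all IBA sums. RAW_Mock exceeded IBA with 6689 counts against 1, a ratio of 7136 (95% counting interval 1280 to 281895), and a fitted log2 fold change of -12.26 for IBA (SE 1.14, adjusted p = 7.36e-05, edgeR quasi-likelihood test). ASPC_Pre exceeded IBA by a ratio of 5021 (900.3 to 198429) and a log2 fold change of 11.25 (SE 1.19, adjusted p = 0.00181, edgeR). The difference of ASPC_Pre from RAW_Mock did not pass the test, at -1 (SE 0.75, adjusted p = 0.316, edgeR). The RAW_Mock sums ran from 85.04 to 148.1 CPM. Without batch 9_1 the log2 fold change was -3.04, with a single ASPC_Pre sum left.

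Live-seq gave no Cxcl14 count in the 3 IBA sums, which puts IBA at least 1955-fold below RAW_Mock (adjusted p = 0.017, edgeR quasi-likelihood test). This was the single member called in Live-seq by the main edgeR test, while Cxcl1, Cxcl2 and Cxcl5 reached adjusted p of 0.00132, 0.00394 and 0.000303 in IBA under the most favourable alternative and 0.643, 0.868 and 0.691 under the least. The Cxcl14 call was lost when batch 7, 8_8 or 9_4 was left out (adjusted p = 0.0978, 0.282 and 0.16, edgeR). In ASPC_Pre, Cxcl14 was at 20.2 CPM from 1 cell and at 109.6 CPM, of which 19.3 CPM remained without the top cell. ASPC_Pre was at least 668.2-fold above IBA (adjusted p = 0.304, edgeR), and against RAW_Mock its log2 fold change was -0.56 (SE 1.7, adjusted p = 0.936, edgeR).

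Cxcl16 was at 13.4 and 37.4 CPM in the scRNA-seq ASPC_Pre sums and at 1.46, 4.54 and 5.15 CPM in IBA. The IBA value of batch 8_8 came from 1 of 15 cells, and that of batch scRNA was 2.1 CPM without its top cell. IBA was below RAW_Mock, with a log2 fold change of -1.97 (SE 0.55, adjusted p = 0.0198, edgeR quasi-likelihood test), and below ASPC_Pre, at 3.24 for ASPC_Pre against IBA (SE 0.62, adjusted p = 0.0153, edgeR). Both calls were lost without batch scRNA (adjusted p = 0.0915 and 0.0672, edgeR), and the second also without batch 9_1 (0.16). ASPC_Pre against RAW_Mock gave 1.26 (SE 0.61, adjusted p = 0.128, edgeR), and 2.1 without batch 8_8 (adjusted p = 0.0194, edgeR). In Live-seq, Cxcl16 was at 19.5 and 37.1 CPM in ASPC_Pre and at 0, 0 and 10.8 CPM in IBA. The ASPC_Pre value of batch 8_8 came from 1 of 18 cells, and 6.86 of the 10.8 CPM in IBA remained without the top cell. Neither state passed the test against RAW_Mock (adjusted p = 0.938 and 0.816, edgeR). Live-seq ASPC_Pre against IBA gave 3.94 (SE 2.45, adjusted p = 1, edgeR).

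Cxcl2 was near 0 in stromal cells. It reached at most 0.314 CPM in any ASPC sum and 0.251 CPM in any IBA sum, those after extraction included. The call of IBA below RAW_Mock (log2 fold change -8.24, SE 2.66, adjusted p = 0.0404, edgeR quasi-likelihood test) rested on the RAW_Mock sum at 105.1 CPM. The groups overlapped, and without batch scRNA the value was -3.27 (adjusted p = 0.267, edgeR). In ASPC_Pre Cxcl2 was at least 532.9-fold lower than in RAW_Mock (adjusted p = 0.323, edgeR), again through the RAW_Mock sum of batch scRNA, since RAW_Mock had 1 count in each batch that holds both states. The adjusted p was 0.292 without batch scRNA and 0.0384 without the batch term (edgeR), and in Live-seq the adjusted p was 0.582 for ASPC_Pre and 0.237 for IBA by the same test.

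Cxcl10 was at 0, 13.7 and 3.82 CPM in the scRNA-seq IBA sums and at 0 in ASPCs. In the sum of batch 9_1, 76% of the counts came from 1 cell, and 3.33 CPM remained without it. That sum is also the IBA sum with 606.66 CPM of macrophage markers, all 10 of them with counts, and their part in its Cxcl10 was not tested. IBA was at least 173-fold above RAW_Mock (adjusted p = 0.00783, edgeR quasi-likelihood test), a call lost with limma (0.0727) and without batch 9_1 (0.0594, edgeR). ASPC_Pre was at least 76.5-fold lower than IBA (adjusted p = 0.055, edgeR).

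Cxcl3, the ELR gene nearest in sequence to Cxcl2, had low counts everywhere. It was at 1.22 and 1.69 CPM in the scRNA-seq ASPC_Pre sums, in 6 of 60 cells, at 0 and 3.71 CPM in the Live-seq ASPC_Pre sums, and at 0 in every RAW_Mock sum. Its highest sum was 5.55 CPM, in Live-seq IBA of batch 8_8, from 1 cell. When every gene with a count was tested in scRNA-seq, ASPC_Pre against RAW_Mock gave an adjusted p of 0.00994 and IBA against RAW_Mock 0.101 (edgeR quasi-likelihood test).

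The stromal cell types differed from each other in 4 of the 7 genes tested in scRNA-seq, 3 higher and 1 lower in ASPC_Pre, against 11.2% of all genes. Cxcl12, Cxcl14 and Cxcl16 were higher in ASPC_Pre and Cxcl1 was higher in IBA. In Live-seq, 0 of 7 were called against 0.0223% of all genes, with 2 at an unadjusted p under 0.05, where DESeq2 and limma called 1 each and the newer edgeR fit and the test without a filter 0. The ASPCs were primary cells of subcutaneous fat of females and IBA a line from brown fat of males, so depot, sex and culture cannot be told apart here.

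**Figure D3:**
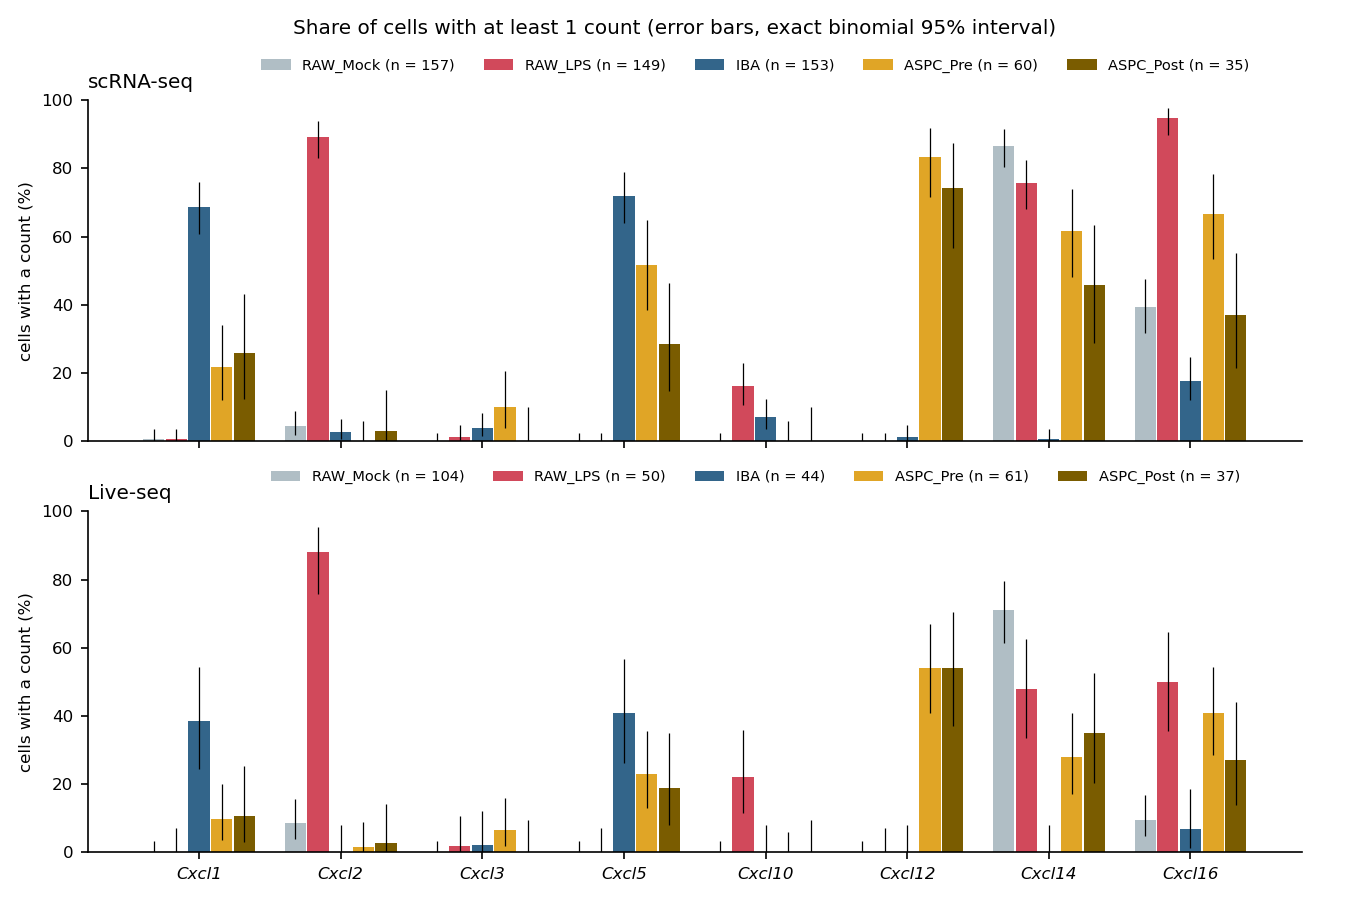
Percentage of cells with at least 1 count of each gene by state and technique, with exact binomial 95% intervals that cover counting error only. Cxcl2 is in 89.3% of scRNA-seq and 88.0% of Live-seq RAW_LPS cells, while the Live-seq share is the lower for Cxcl12 in ASPC_Pre (54.1% against 83.3%) and for Cxcl16 in RAW_LPS (50% against 94.6%).

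Receptors and proteases of the pathway were counted in the same tests. Of 7 CXC receptor genes in the table, 3 were tested, and 1 was higher and 1 lower than in RAW_Mock in each stromal type, where 40% of all genes were called in ASPC_Pre and 33.7% in IBA. Ackr3, the scavenging receptor of CXCL12, was at 13.1 and 48.9 CPM in scRNA-seq ASPC_Pre, at 12.7, 30.6 and 8.13 CPM in IBA and at most 0.0291 CPM in RAW. Its log2 fold change against RAW_Mock was 10.5 in ASPC_Pre (SE 0.9, adjusted p = 0.000166, edgeR quasi-likelihood test) and 9.71 in IBA (SE 0.85, adjusted p = 0.000192, edgeR). Cxcr4, the signalling receptor of CXCL12, was at 8.09, 4.58 and 4.11 CPM in RAW_Mock, with a log2 fold change of -7.35 in ASPC_Pre (adjusted p = 0.0116, edgeR) and -7.22 in IBA (adjusted p = 0.00459, edgeR). It was at most 0.417 CPM in any scRNA-seq stromal sum. After LPS Cxcr4 was at 2.42, 0.309 and 0.0339 CPM, below RAW_Mock in each batch, at a log2 fold change of -3.98 (SE 1.22, adjusted p = 0.17, edgeR). Among 3 proteases tested, Mmp2, which can trim CXCL12, was higher in both stromal types, at 8.75 in ASPC_Pre and 4.13 in IBA. Adam17, a sheddase, was lower, at -2.63 and -3.01, and Adam10, which sheds CXCL16, was lower in ASPC_Pre at -1.04. None of the 5 other CXC ligands in the table was tested.

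Live-seq and scRNA-seq were compared directly. For the LPS difference, 0 of 7 genes had a called difference between techniques against 0% of all genes, with 0 at an unadjusted p under 0.05 and 0 called by DESeq2, limma, the newer edgeR fit or without the filter. The log2 fold change in Live-seq minus that in scRNA-seq was -2.33 for Cxcl2 (SE 3.59), 1.36 for Cxcl14 (SE 1.54) and -1.06 for Cxcl16 (SE 2.06), each with an adjusted p of 1 in edgeR. These errors allow differences of several log2 units, so the techniques are not shown to give the same response. For levels within RAW_LPS, 0 of 7 were called against 0% of all genes, and within ASPC_Pre 0 of 7 against 0%, each with 0 at an unadjusted p under 0.05. The test without a filter called 1 in RAW_LPS and DESeq2 called 1 in ASPC_Pre, and the other tools 0. RAW_LPS levels in Live-seq differed from scRNA-seq by a log2 fold change of 2.4 for Cxcl2 (SE 1.85, adjusted p = 1, edgeR), 1.62 for Cxcl14 (SE 0.96, adjusted p = 0.843) and 1.38 for Cxcl16 (SE 1.49, adjusted p = 1). The widest difference was that of Cxcl10 at 5.95 (SE 2.96, adjusted p = 0.675, edgeR), which passed without the filter on low counts (adjusted p = 0.00455), with adjusted p up to 1 under other alternatives. Without batch 5Reseq the values of Cxcl10 and Cxcl16 were -0.59 and -0.22. In ASPC_Pre, Cxcl2 had 5 counts in Live-seq and none in scRNA-seq (adjusted p = 1 with edgeR and 1.49e-05 with DESeq2). The other values were -0.71 for Cxcl1 (SE 1.72), -0.22 for Cxcl5 (SE 1.4), 0.68 for Cxcl12 (SE 1.7), 0.53 for Cxcl14 (SE 1.24) and 0.3 for Cxcl16 (SE 1.94), each with an adjusted p of 1 in edgeR. Batch enters no term in these comparisons of levels, since batch 8_8 alone holds both techniques. The LPS difference between techniques had batch nested in technique.

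Adipogenic induction was compared in a single batch per technique, with 1 ASPC_Post sum each, so that no test was made. The intervals treat each read as an independent draw and cover neither PCR copies nor the spread between cells. Cxcl12, Cxcl5 and Cxcl16 were lower after induction in both techniques. Cxcl12 in ASPC_Post was 0.343 times ASPC_Pre in Live-seq (95% interval 0.325 to 0.361) and 0.339 times in scRNA-seq (0.32 to 0.358), and 0.298 and 0.264 times without the top cell of each group. Cxcl5 was 0.241 times (0.196 to 0.295) and 0.0975 times (0.0758 to 0.124), and 0.126 and 0.0529 times without the top cells. Cxcl16 was 0.273 times (0.228 to 0.326) and 0.147 times (0.118 to 0.182). The lowered genes thus span an ELR ligand, the niche factor and the membrane-bound ligand.

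Cxcl14 and Cxcl1 rested in part on single cells. Cxcl14 was 0.336 times in Live-seq and 0.462 times in scRNA-seq, but 1.42 and 0.94 times without the top cell of each group. Cxcl1 was 0.976 times in Live-seq (0.735 to 1.3) and 2.94 times in scRNA-seq (2.31 to 3.76), and 0.677 and 1.52 times without the top cells. Cxcl3 went from 59 counts to 0 in Live-seq and from 41 to 0 in scRNA-seq. The receptor gene Ackr3 went from 44.01 to 189.99 CPM in Live-seq, 4.32 times (3.98 to 4.69), and from 48.87 to 130.4 CPM in scRNA-seq, 2.67 times (2.49 to 2.87), and 4.36 and 2.76 times without the top cells. Mesothelial markers, at up to 213.98 CPM in ASPC_Pre, were at most 0.29 CPM in ASPC_Post, and their part in these ratios was not tested. Within the same batches Cxcl12 had a count in 39 of 44 cells before induction and 26 of 35 after it in scRNA-seq, and in 29 of 43 and 20 of 37 in Live-seq, so that the level changed by more than the share of cells with a count.

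IBA cells sequenced after extraction had more Cxcl1 and Cxcl5 than non-probed cells of the same batch, with 1 sum per time and no test. The intervals again treat each read as an independent draw and leave out the spread between cells. Cxcl1 was at 110.6 CPM in 70 IBA_0h cells, 270.3 CPM in 49 IBA_1h cells and 183.4 CPM in 43 IBA_4h cells. That is 2.44 times (95% counting interval 2.33 to 2.56) at 1 h and 1.66 times (1.57 to 1.75) at 4 h, and 2.29 and 1.49 times without the top cell of each group. The share of cells with a count followed the same course, at 42.9%, 69.4% and 55.8%.

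Cxcl5 was at 36.1, 114.8 and 55.13 CPM, or 3.18 times (2.94 to 3.44) and 1.53 times (1.39 to 1.68) the non-probed level, and its share of cells was 34.3%, 63.3% and 46.5%. Both ELR genes were found together in 12 of 70, 27 of 49 and 14 of 43 cells. Cxcl16 was at 2.95, 5.67 and 3.83 CPM, 1.92 times (1.43 to 2.61) and 1.3 times (0.909 to 1.85). Cxcl10 had 4, 39 and 22 counts, where all 22 came from 1 cell, and Ackr3 was at 25.9, 31.0 and 12.3 CPM. Cxcl2 had no count at 0 h or 1 h. Ppbp, a CXC ligand outside the followed genes, went the other way in these sums. It was at 21.02 CPM in IBA_0h, 1.75 CPM in IBA_1h and 0 CPM in IBA_4h. A single cell held 95.3% of its IBA_0h counts.

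**Figure D4:**
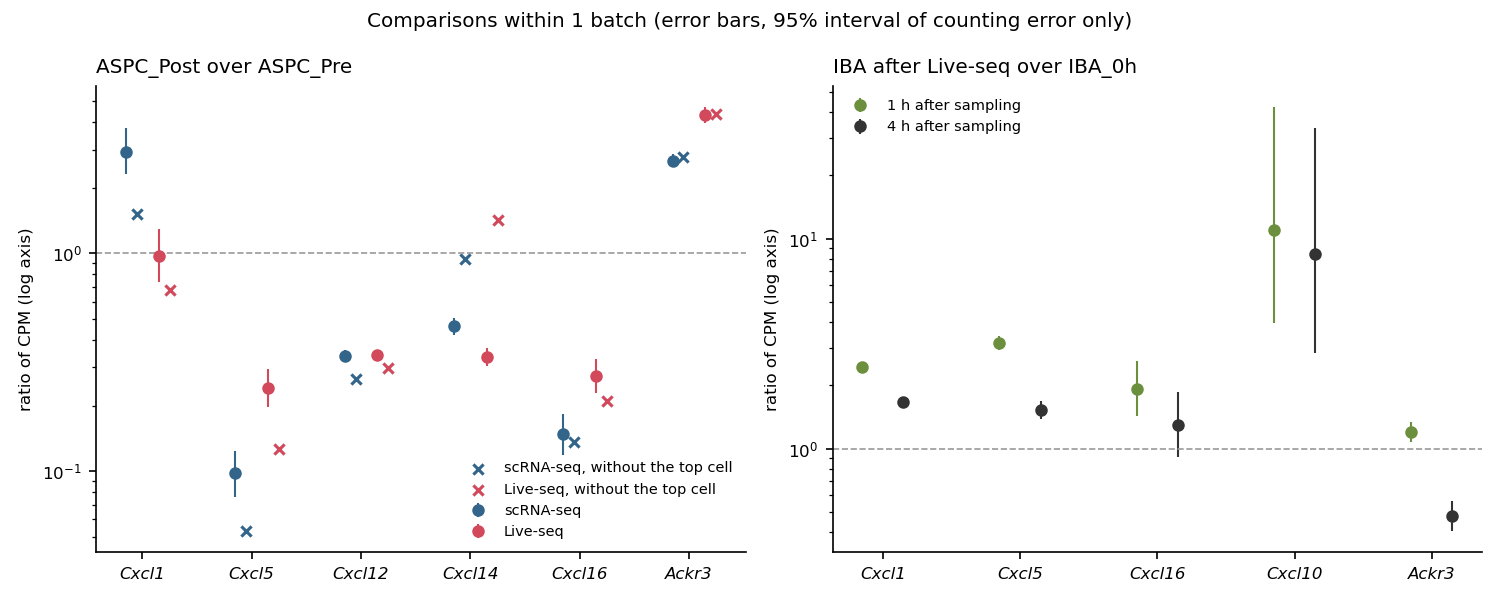
Ratios of levels within a single batch on a log axis, with circles and lines for the ratio and its 95% counting interval over reads and crosses for the ratio without the top cell of each group. On the left, ASPC_Post over ASPC_Pre lies below 1 for Cxcl5, Cxcl12 and Cxcl16 and above 1 for Ackr3 in both techniques. On the right, IBA_1h and IBA_4h over IBA_0h lie above 1 for Cxcl1 and Cxcl5.

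Some cells were sampled by Live-seq before and after a change of state. In 4 RAW cells taken first as RAW_Mock and then as RAW_LPS, Cxcl2 had no count in any first biopsy and was at 970.3, 1259, 0 and 865.98 CPM in the second. It was thus found after LPS in 3 of 4 cells. The labels number both libraries of the remaining cell as first extractions, so that its pairing is uncertain. Cxcl16 went from 0 in all 4 to 0, 0, 3.33 and 200 CPM. Cxcl14 was found in 2 first and in 2 second biopsies, of different cells.

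In 9 ASPCs that the labels pair as sampled before and after induction, a pairing not checked here against the barcodes that the study used to track cells, Cxcl12 was lower after it in 5 and higher in 3. The study accepted fewer pairs than the labels give, and which it left out is not known here, so these tallies may hold a cell that it did not accept. Pooled over the cells it went from 599.7 to 92.44 CPM, and the highest first biopsies, at 2919 and 2098 CPM, both had none in the second. Ackr3 was higher after induction in 6 cells and lower in 2, at 9.326 and 212.8 CPM pooled. No test was made on these pairs, since single biopsies sample few transcripts.

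The genes most like each member across the 12 scRNA-seq sums were named by Pearson correlation of log2(CPM + 1), with the value across the 15 Live-seq sums beside it. The sums share cell types and batches, so these values describe patterns and carry no test. Cxcl2 was most like the cytokine gene Csf3 (0.993 and 0.869), Lcn2, an iron-siderophore binder (0.992 and 0.531), and the cytokine gene Il27 (0.984 and 0.885). Cxcl1 was most like Enpp1 (0.993 and 0.953), Dcbld1 (0.992 and 0.951) and Rab39b (0.99 and 0.879). Cxcl5 was most like Lpar4 (0.992 and 0.498), Trim47 (0.99 and 0.978) and Podnl1 (0.99 and 0.727). Cxcl12 was most like Gm15228 (0.998 and 0.984), Pabpc4l (0.998 and 0.802) and Gm16006 (0.998 and 0.862).

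The remaining members had looser partners. Cxcl16 was most like the amino acid transporter gene Slc7a7 (0.942 and 0.304), Dnmt3l (0.915 and 0.339) and Icam1 (0.91 and 0.617), and Cxcl14 most like Nudt19 (0.962 and 0.756), E030030I06Rik (0.947 and 0.373) and Htatip2 (0.947 and 0.413). Cxcl10 reached 0.814 with Ifi35 (0.335 in Live-seq), 0.796 with the interferon regulator Irf1 (0.329) and 0.789 with Rpl17-ps10 (0.471). Among the members, Cxcl1 and Cxcl5 correlated at 0.892 and 0.766, Cxcl2 and Cxcl16 at 0.79 and 0.646, and Cxcl1 and Cxcl14 ran opposite at -0.892 and -0.853. The partners depend on the measure, since by Spearman correlation Slc7a7 alone of the named genes stayed among the 3 most like its member, and Csf3, Lcn2 and Il27 had values of 0.722, 0.775 and 0.712 with Cxcl2.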

How the data were processed

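Per the labels and the study's methods, the authors demultiplexed reads with bcl2fastq 2.19.1, mapped them with STAR 2.6.1c on GRCm38 and counted reads per gene without strand with HTSeq, and the deposited values are raw counts per cell. Of 30452 features, 918 had no counts, and 30322 had a symbol. The 20 negative-control genes named by the study and 85 ribosomal protein genes were removed. Counts were summed per technique, state and batch where at least 3 cells were present. Genes that reached 2 counts in 15% or more of the cells in 1 scRNA-seq state or more, and also passed filterByExpr (minimum count 2, minimum proportion 0.05), were tested with edgeR 4.0.16 (R 4.3.3), TMM scaling, a quasi-likelihood fit of state and batch (prior count 0.125) and Benjamini-Hochberg adjustment. A gene was called at an adjusted p under 0.05 and an absolute log2 fold change over 1. The interaction of LPS and technique had batch nested in technique, and comparisons between techniques had no batch term. DESeq2 1.42.0, limma 3.58.1 on the mean CPM of cells (pseudocount 1), the newer edgeR fit, no filter, the removed genes kept, no batch term, no second biopsies and each batch left out were the alternatives, and leaving out the top cell was added after seeing the data. Scripts were tested on simulated data.

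A fold against a group without counts used a floor of 3 counts, which is a limit on reads and not on transcripts. Intervals are exact at 95%, and those of ratios take each read as an independent draw. The labels name the batch, which was the block. Deviations from state means correlated within batches at 0.287, 0.46 and 0.522 in scRNA-seq (8_8, 9_1, scRNA) and at 0.235, 0.07, 0.002 and 0.114 in Live-seq (6, 7, 8_8, 9_4). Named genes were the 8 members, the 3 genes most like each tested member, and some, not all, of the receptors and other CXC ligands with counts. Of other lists they were the 2 called genes with the largest and the 2 with the smallest change. Single interferon-stimulated genes in batch 5Reseq, Lyz2 and adipocyte markers were named after their values were seen. Members and lists were chosen with earlier results of these data known. No libraries were identical. Cells below 50000 counts (3 Live-seq, 1 scRNA-seq and 2 post-extraction cells) were left out of thinning. The LPS dose differs between sources and is not given.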

Additional observations from a re-analysis of the deposited data

Results flagged for a closer look

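The level of Cxcl10 in the Live-seq RAW_LPS sum of batch 5Reseq was 1874.5 CPM, while the next highest of the 5 sums was at 14.59 CPM. It stood apart from the others by a gap of 0.992 of the group's whole range. The level of Cxcl16 in the same sum was 601.4 CPM against 113.6 CPM in the next, a gap of 0.849 of the range. Both exceed the critical value of Dixon's test for 5 samples on the CPM scale. That test assumes normally distributed values, which skewed CPM levels need not be, and a log scale was not used. Both values come from the same sum and are not independent. In all, 7 groups of sums were examined, and under that assumption chance sets a sample apart in about 1 in 20 groups. Batch 5Reseq holds the wild-type RAW264.7 line and no other batch does, so the line and the batch cannot be told apart.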

How the results depend on the processing

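The percentage of all genes tested that was called moved with the test. For LPS in scRNA-seq (main value 1.23%), DESeq2 called 5.12%, limma with cells weighted equally 3.37% and the newer edgeR fit 3.03%. For LPS in Live-seq (0%), DESeq2 called 4.79%, limma 0.00743% and the test without the filter 0.00414%. For ASPC_Pre and IBA against RAW_Mock in Live-seq (2.01% and 2.27%), DESeq2 called 10.3% and 11%, limma 8.95% and 9.04%, and the newer edgeR fit 5.22% and 5.38%. Between the stromal types the share in scRNA-seq (11.2%) was 21.2% with limma and 19.4% with the newer edgeR fit, and in Live-seq (0.0223%) it was 2.06% with DESeq2, 1.79% with limma, 0.0594% with the newer edgeR fit, 0.0538% without the filter, 0.0147% with the removed genes kept and 0.00745% without second biopsies of a cell. The difference of LPS effects (0%) gave 2.96% with DESeq2 and 0.0147% without second biopsies. Live-seq against scRNA-seq (0%) gave 1.89%, 0.966% and 0.207% in RAW_LPS and 0.531%, 1.01% and 0.00345% in ASPC_Pre, by DESeq2, limma and without the filter. Without the filter more genes were tested, and the scRNA-seq shares of ASPC_Pre and IBA against RAW_Mock (40% and 33.7%) and of ASPC_Pre against IBA were 19.3%, 17.1% and 5.1%. Leaving out a batch gave 0% (without 8_8) to 0.135% (without 9_1) for LPS in scRNA-seq, with 0.0295% without scRNA, 23.9% (without 9_1) to 41% and 22.2% (without scRNA) to 33.1% for ASPC_Pre and IBA against RAW_Mock in scRNA-seq, and 0.322% (without 9_1) to 11.3% between them, with 3.24% without scRNA. In Live-seq it gave 0.00747% (without 8_8) to 2.94% and 0.0971% (without 8_8) to 2.82% against RAW_Mock, with 1.28% and 0.968% without 7 and 0.118% and 0.45% without 9_4, and 0% (without 8_8 or 9_4) to 0.0223% between the stromal types. It gave 0% to 0.221% (without 9_4) for the difference of LPS effects, and 0% to 0.0295% (without 6) and 0% to 0.147% (without 9_4) between techniques in RAW_LPS and ASPC_Pre. Apart from the number of genes tested, the cause of these shifts was not tested.

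Without the replicate block (no batch term), 0.258% of genes were called for LPS in scRNA-seq, 7% for ASPC_Pre against IBA in scRNA-seq, and 4.44%, 4.92% and 0.0817% for ASPC_Pre and IBA against RAW_Mock and against each other in Live-seq. Without the block the log2 fold change of Cxcl2 and Cxcl5 for ASPC_Pre against IBA in scRNA-seq was -3.62 and -0.02 (main 0.41 and 0.24), that of Cxcl14 for LPS in Live-seq -0.02 (0.08), and the difference of LPS effects 0.75 for Cxcl2 (-2.33), 5.95 for Cxcl10 (-1.43) and 0.99 for Cxcl16 (-1.06).

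Of the members' log2 fold changes under alternatives, 564 kept direction and side of the threshold, 40 passed it newly, 19 lost it and 37 turned sign. For ASPC_Pre against IBA in scRNA-seq, Cxcl5 was -0.06 with DESeq2, -0.27 with limma and from -0.78 without batch 8_8 to 1.23 when a batch was left out, and Cxcl2 -0.88 with the newer edgeR fit, -1.48 without 8_8, -1.2 without 9_1 and 0.01 without scRNA. In Live-seq Cxcl5 was -0.26 with limma, -0.57 without 8_8 and 1.3 without 9_4 (main 0.38), and Cxcl2 -0.16 with limma and -0.91 without 9_4, and up to 5.05 with another batch left out (4.45). Against RAW_Mock in Live-seq, ASPC_Pre gave -0.45 without 9_4 and 8.53 without 8_8 for Cxcl1 (6.88), and 1.01 without 8_8 and -11.48 without 9_4 for Cxcl2 (-5.1), and 1.06 and -3.25 for Cxcl14 (-0.56). Cxcl14 for LPS in Live-seq was -0.77 without 6, -0.02 without 7 and 0.72 without 9_4. The difference of LPS effects for Cxcl2 was 0.5 with limma, 3.84 without 8_8, 1.15 without 9_1 and -5.91 without scRNA, and for Cxcl10 0.19, 0.05 and -6.09 without 8_8, 9_1 and 7. Between techniques in RAW_LPS, Cxcl10 was -0.59 without 5Reseq and 8.64 without 9_1 (5.95), and Cxcl16 -0.22 without 5Reseq, 1.81 without 9_4 and -0.01 with limma. In ASPC_Pre, Cxcl1 was 0.85 without 8_8 and -9.57 without 9_4, limma gave -0.33 for Cxcl14 and -0.59 for Cxcl16, and without 9_4 the values were 0 for Cxcl2 (4.77), 0.08 for Cxcl5, -0.23 for Cxcl12, -1.4 for Cxcl14 and -0.45 for Cxcl16. The opposite ends were 5.69 for Cxcl2 without 8_8 and, without 9_1, -0.54 for Cxcl5, 1.73 for Cxcl12, 2.13 for Cxcl14 and 1.36 for Cxcl16. The Live-seq ratio of Cxcl14 after induction was 1.42 without its top cells (0.336).

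Live-seq values rest on few biopsies, and a sum with a single positive cell has no spread of its own. A batch left out can leave an arm with 1 sum, which is then assumed to vary like the other groups.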
